A study of Homo sapiens with 35 samples.

Results

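Glucose starvation of INTS13-depleted HEK293T cells was measured in 4 of the 35 libraries of the series, chosen by their labels. The starved group held 2 libraries of cells that received a siPOOL against INTS13 and spent their last 24 h in medium without glucose. It was set against 2 libraries of cells with the same siPOOL that stayed in glucose medium. All 4 came from HEK293T, an established human embryonic kidney line, and the siPOOL, a mixture of many different siRNAs that share 1 target transcript, was applied at 5 nM for 72 h in 2 rounds of transfection. HEK293T cells carry the SV40 large T antigen, which binds p53. For comparison, 4 libraries of control siPOOL cells without glucose and 4 of control siPOOL cells with glucose were used, and 2 libraries each of HDGF-depleted cells without and with glucose. The libraries carry the numbers 3 and 4 in the labels (3a, 3b, 4a and 4b in the controls), and no label says that each came from its own culture. The p-values therefore cover only differences among these samples, which may be technical. Of the 60665 genes in the table, 19275 passed the count filter and were tested.

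INTS13 is a subunit of the Integrator complex, which is recruited to RNA polymerase II, cuts RNA as it is being made and so stops the polymerase at coding and noncoding genes. Cells deprived of glucose lose the sugar phosphates that activate the transcription factor MondoA, and they slow protein glycosylation and growth. Shortage of nutrients also engages the integrated stress response, in which the factor ATF4 switches on genes of amino acid uptake, amino acid synthesis and, under lasting stress, cell death.

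The starved INTS13-depleted libraries held 18.9 and 25.3 counts in units of 1e6, and the fed ones 26.5 and 22.6. Levels are given in CPM, counts scaled to a library total of 1e6 with TMM factors. Of 7 markers of the HEK293 line, in CPM of the plain totals, 5 had at least 1 CPM in all 4 libraries, and LIN28B reached 224 CPM. Of 21 markers of blood, fibroblast, endothelial, muscle, squamous and liver cells, 8 were at 0 counts in all 4 libraries and 20 stayed below 1 CPM, the exception being COL1A1 with at most 9.45 CPM. In bulk RNA a change in every cell and a larger change in some of the cells cannot be told apart.

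INTS13 (chromosome 12, 26905181 to 26938326 on hg38) had 19.8 and 18.8 CPM in starved INTS13-depleted cells, against 14.2 CPM in each fed INTS13-depleted library. The control cells had 101.5 to 106.3 CPM without glucose and 98.2 to 107.3 CPM with glucose. The depleted and control libraries did not overlap, and INTS13 stood at 18.6% of the starved control mean without glucose and at 13.9% of the fed control mean with glucose. The difference between starved and fed depleted cells was 0.44 ± 0.13 (log2 fold change ± SE) and did not pass (edgeR adjusted p = 0.102). It passed with second-set libraries only (adjusted p = 0.000339), the 18 libraries numbered 3 and 4 outside the ZMYND8 experiment.

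Without glucose, INTS13-depleted cells had fewer transcripts of the glucose-sensing genes TXNIP and ARRDC4, the lipid regulator SREBF1, 3 histone genes and the cyclin gene CCND1. They had more transcripts of named genes of amino acid supply (SLC1A5), cholesterol synthesis (SQLE) and cell death (BBC3), and of TIPARP and CYP1B1. The most reduced of the named genes was TXNIP at 23.9% of its fed level, apart from IFI44L below 1 CPM. The most raised, apart from NUPR1 at under 2 CPM, were CYP1B1 (2.32-fold) and CTH (2.31-fold). By the quasi-likelihood test of edgeR, 255 of 19275 genes, or 1.32%, passed an adjusted p of 0.05. Of these 165 (0.856%) were higher without glucose and 90 (0.467%) lower, and 23 and 24 of them changed at least 2-fold. The median log2 fold change was 0.64 over the higher calls, -0.67 over the lower ones and -0.006 over all genes tested. For each of the 255 genes both starved libraries lay on 1 side of both fed libraries, which was also so for 56.3% of all genes tested. At an unadjusted p under 0.05 there were 2408 genes.

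The number of calls differed widely between fits. With second-set libraries only, 2371 genes (12.7% of 18665) were called, 1381 (7.4%) higher and 990 (5.3%) lower, and they held all 255. Within the fit of 35 libraries, calls fell to 22 and 14 without fed INTS13 library 3 or 4 and to 36 and 8 without starved INTS13 library 3 or 4. Across those 4 reduced fits, 4 of the 255 genes were called every time, TXNIP, CYP1B1, TIPARP and TMEM209, the last named after its values were seen. In the second-set fit the same step left 987 to 1217 calls, and 560 of the 2371 kept theirs throughout, 180 of the 255 among them. Genes and lists are given by the call of the 35-library fit, and each list's second-set count stands beside it. These counts can be read against the 1.32% and 12.7% of all genes called in each fit. Of the 62 called genes chosen for naming, 3 kept their call in all 4 reduced fits of the 35 libraries and 45 in none, while 56 stayed called with each library left out of the second-set fit, and the exceptions were MOB3C (adjusted p up to 0.0631), AC091182.1 (0.0666), SNAI3-AS1 (0.0731), NABP1 (0.0721), IFI44L (0.136) and IFIT1 (0.196).

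**Figure D1:**
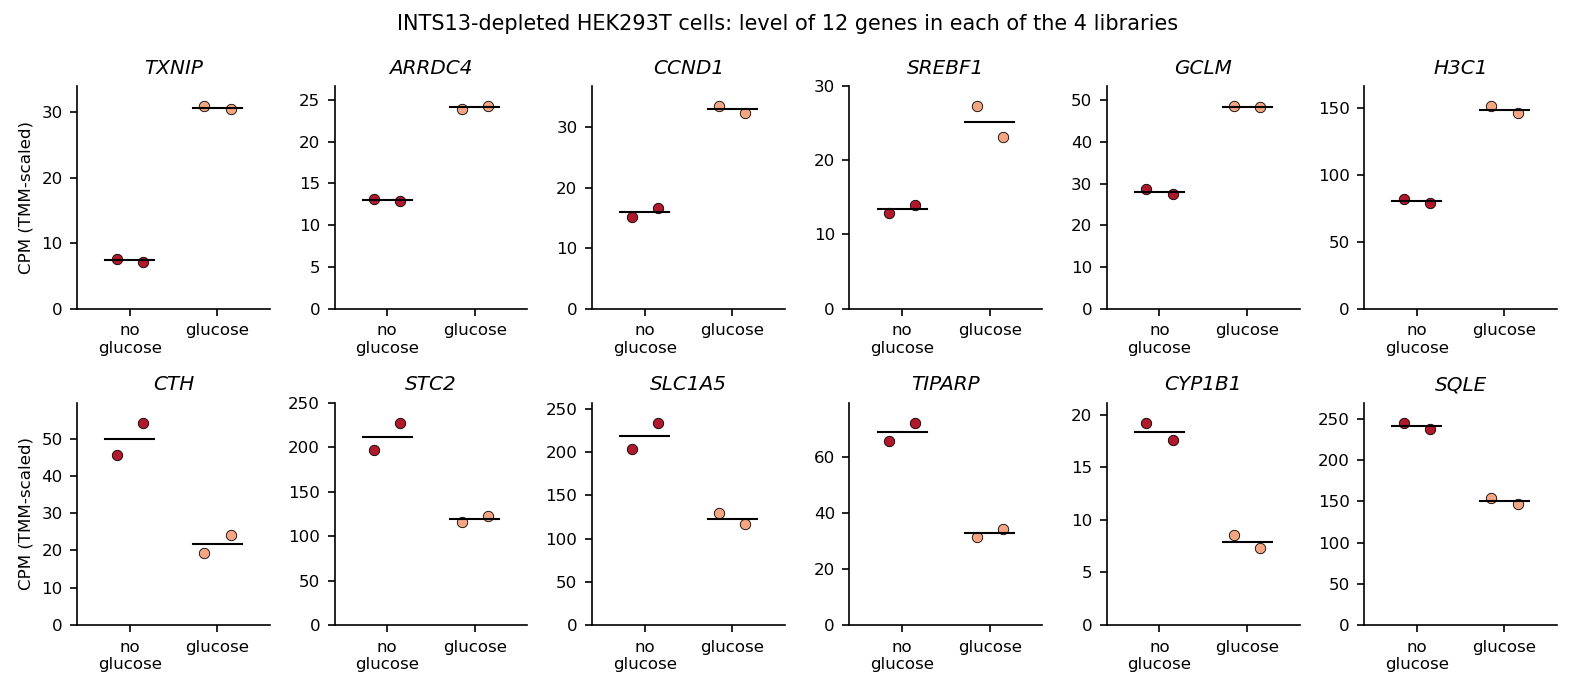
Level of 12 called genes in INTS13-depleted cells, in TMM-scaled CPM from 0 on each vertical axis, without glucose on the left and with glucose on the right of each panel. Each point is 1 library and the line is the mean of 2; in every panel the 2 starved libraries lie apart from the 2 fed ones, as for TXNIP at 7.58 and 7.11 CPM against 30.9 and 30.4 CPM.

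TXNIP and ARRDC4 encode arrestin-like proteins that restrain glucose uptake, and both are textbook targets of MondoA. TXNIP (chromosome 1, 145992435 to 145996579) had 7.58 and 7.11 CPM in starved INTS13-depleted cells, against 30.9 and 30.4 CPM in fed ones. Both starved libraries lay far below both fed ones, and the gene fell by 2.06 on the log2 scale (SE 0.25, adjusted p = 0.000111). ARRDC4 (chromosome 15, 97960703 to 97973833) had 13.2 and 12.9 CPM without glucose and 24.0 and 24.3 CPM with glucose, again with no overlap, and fell by 0.89 (SE 0.14, adjusted p = 0.002). Of the 13 tested members of the MondoA and ChREBP list these 2 fell, 0 rose and 11 did not pass. The list's median was 0.07, and 3 fell and 1 rose with second-set libraries only.

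The promoter windows of both genes are shown because MondoA acts through E-box elements. RefSeq (GRCh38.p14) windows run from 250 bases before to 50 bases after an annotated start. The ARRDC4 window (chr15:97960453-97960752, plus strand) held 1 match to CACGTG, in capitals, starting 210 bases before the start site. The first TXNIP window (chr1:145996530-145996829, minus strand) held no CACGTG, and its capitals mark 2 matches to CCAAT, at 140 and 105 bases before the start. Only the exact letters CACGTG were searched for, so E-box elements with other letters were not covered and may be present in either window.
ARRDC4: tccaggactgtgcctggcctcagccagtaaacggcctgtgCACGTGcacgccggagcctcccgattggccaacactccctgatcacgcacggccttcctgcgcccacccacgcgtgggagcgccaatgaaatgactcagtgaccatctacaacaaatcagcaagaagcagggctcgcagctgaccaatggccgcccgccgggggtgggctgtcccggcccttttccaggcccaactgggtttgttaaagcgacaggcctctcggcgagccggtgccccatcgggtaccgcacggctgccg
TXNIP: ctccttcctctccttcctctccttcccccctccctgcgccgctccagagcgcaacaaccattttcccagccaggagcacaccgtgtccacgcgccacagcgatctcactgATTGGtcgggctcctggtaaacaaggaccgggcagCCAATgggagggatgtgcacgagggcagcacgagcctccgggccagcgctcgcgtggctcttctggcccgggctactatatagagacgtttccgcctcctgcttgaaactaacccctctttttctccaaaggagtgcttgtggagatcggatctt
Searched on both strands, CACGTG was present in 7.26% of 35116 RefSeq windows and CCAAT in 34.6%. A window was found by symbol for 11770 tested genes, of which 12.4% held CACGTG in at least 1 window. The share was 15.5% of 129 genes called higher and 7.94% of 63 called lower. These matches describe letters in the window.

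SLC2A1, the widely expressed glucose transporter gene, had 47.4 and 50.6 CPM in starved cells and 52.7 and 48.2 CPM in fed ones, and its libraries overlapped (log2 -0.04 ± 0.10, adjusted p = 0.923). The neuronal-type transporter gene SLC2A3 (-0.24), the hexokinase gene HK2 (0.07) and the bifunctional regulators of glycolysis PFKFB3 (-0.27) and PFKFB4 (0.25) did not pass either over 35 libraries (adjusted p = 0.241 to 0.925). Of 24 glycolysis enzymes 0 were called by edgeR in the 35-library fit, where 1.32% of all genes were, and 3 rose and 2 fell with second-set libraries only, with a median of 0.02. Of 14 glucose and lactate transporters 0 were called, and 1 of the 13 tested with second-set libraries only rose. Beside glycolysis, H6PD, which makes NADPH inside the endoplasmic reticulum, had 32.4 and 36.7 CPM in starved cells and 21.1 and 19.1 CPM in fed ones. It rose (0.79 ± 0.18, adjusted p = 0.0236), as did PYGL, the glycogen phosphorylase gene (0.53 ± 0.11, adjusted p = 0.0113). PCK2, the mitochondrial enzyme that makes phosphoenolpyruvate, had 63.1 and 68.7 CPM without glucose and 39.8 and 39.1 CPM with it (0.74 ± 0.16, adjusted p = 0.022).

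The ATF4 and CHOP effectors were the list with the highest median among those tested with more than 10 members. All 33 tested members had a positive log2 fold change, with a median of 0.52, against 49.0% of all genes above 0 and a median of -0.006. In the 35-library fit 6 rose, 0 fell and 27 did not pass, and with second-set libraries only 23 rose and 0 fell. CTH, which releases cysteine in transsulfuration, had 45.7 and 54.3 CPM in starved cells, against 19.3 and 24.1 CPM in fed ones, and rose by 1.21 (SE 0.24, adjusted p = 0.0106). STC2, a secreted glycoprotein of stressed cells, had 196.7 and 227.8 CPM without glucose and 115.5 and 123.0 CPM with it (0.83 ± 0.18, adjusted p = 0.021). The starved and fed libraries of both genes were apart. The stress regulator NUPR1 was low throughout, with 1.96 and 1.94 CPM in starved cells and 0.348 and 0.245 CPM in fed ones (2.68 ± 0.47, adjusted p = 0.0037).

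ATF4 itself had 1003 and 970.8 CPM in starved cells and 688.1 and 711.8 CPM in fed ones, with no overlap. Its change of 0.50 ± 0.15 did not pass over 35 libraries (adjusted p = 0.0949) and passed with second-set libraries only (adjusted p = 9.88e-06). The same held for the members ASNS, the asparagine synthetase gene (0.67, adjusted p = 0.233 and 0.000227), for DDIT3, which encodes CHOP (0.64, adjusted p = 0.346 and 0.0144), and for DDIT4, a brake on mTORC1 (0.52, adjusted p = 0.351 and 0.00106). DDIT3 overlaps MBD6, with which reads may be shared. TRIB3, a pseudokinase that dampens this pathway, had 27.7 and 31.0 CPM in starved cells and 27.0 and 28.1 CPM in fed ones, and these overlapped (0.09, adjusted p = 0.874, and 0.614 with second-set libraries only). CHAC1, which degrades glutathione, was chosen after its values were seen: it had 22.3 and 21.9 CPM without glucose and 10.7 and 10.6 CPM with it (1.05 ± 0.48, adjusted p = 0.345, and 6.65e-05 with second-set libraries only).

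Windows with a match to TGATGNAA, the composite site for C/EBP and ATF factors, are shown for CHAC1 and for the cell-death gene HRK. In CHAC1 (chr15:40953221-40953520, plus strand) the match, in capitals, started 209 bases before the start site, and in HRK (chr12:116881392-116881691, minus strand) 75 bases before it.
CHAC1: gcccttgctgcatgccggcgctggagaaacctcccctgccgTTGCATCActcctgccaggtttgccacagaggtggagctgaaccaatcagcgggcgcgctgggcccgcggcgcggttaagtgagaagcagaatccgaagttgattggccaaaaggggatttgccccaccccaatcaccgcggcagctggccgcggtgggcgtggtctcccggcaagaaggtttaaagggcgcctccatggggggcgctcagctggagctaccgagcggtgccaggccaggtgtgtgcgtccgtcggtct
HRK: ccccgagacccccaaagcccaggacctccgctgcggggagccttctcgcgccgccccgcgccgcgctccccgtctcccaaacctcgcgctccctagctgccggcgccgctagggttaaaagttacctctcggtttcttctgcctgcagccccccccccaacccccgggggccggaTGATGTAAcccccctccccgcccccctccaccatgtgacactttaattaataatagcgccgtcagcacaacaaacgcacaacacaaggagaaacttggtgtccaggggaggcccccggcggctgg
The letters were found in 3.62% of the 35116 windows, on either strand. Among genes with a window they were found in 6.98% of those called higher (9 of 129), in 3.17% of those called lower (2 of 63) and in 2.81% of those tested.

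Transporters and enzymes of amino acid supply were among the higher calls. SLC1A5, the glutamine importer gene, had 204 and 234 CPM in starved cells, against 129 and 117 CPM in fed ones, and rose by 0.83 (SE 0.13, adjusted p = 0.002). SLC1A4, a related importer of serine and alanine, had 33.8 and 36.8 CPM without glucose and 16.7 and 20.1 CPM with it (0.94 ± 0.19, adjusted p = 0.0109). Neither gene's starved libraries reached down to its fed ones. SLC38A1, another glutamine importer gene, rose by 0.47. Of 18 amino acid transporters 3 rose, 0 fell and 15 did not pass, with a median of 0.34. In the second-set fit 11 rose and 1 fell.

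Of 25 enzymes of serine, one-carbon and asparagine synthesis 3 rose and 0 fell, with a median of 0.22, and with second-set libraries only 11 rose and 0 fell. ASS1, which makes argininosuccinate, had 44.6 and 44.9 CPM in starved cells and 24.7 and 24.8 CPM in fed ones (0.85 ± 0.20, adjusted p = 0.0272). GPT2, a mitochondrial alanine transaminase, rose by 0.59, and PHGDH, the first enzyme of serine synthesis, rose by 0.47 (597 and 606.5 CPM against 441.9 and 428.5 CPM in fed cells). PSAT1, the next enzyme of that pathway and named after its values were seen, had 446.6 and 437.8 CPM without glucose and 303.5 and 304.2 CPM with it (0.54, adjusted p = 0.0921, and 1.75e-05 with second-set libraries only). Of 22 cytosolic tRNA synthetases LARS1 (0.47) and IARS1 (0.42) rose and HARS1 fell by 0.34, with a median of 0.12. In the second-set fit 9 rose and 2 fell.

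SQLE, which encodes the squalene epoxidase of cholesterol synthesis, had 245.4 and 237.2 CPM in starved cells, against 154.5 and 146.3 CPM in fed ones (0.68 ± 0.14, adjusted p = 0.0133). MVD (0.62), an enzyme of the mevalonate pathway, and the sterol carrier gene STARD4 (0.70) rose as well. Of 25 cholesterol genes these 3 rose, 0 fell and 22 did not pass, with a median of 0.39. In the second-set fit 19 rose and 0 fell, among them HMGCS1, an early enzyme of the mevalonate pathway, which was named after its values were seen. HMGCS1 had 198.2 and 183.1 CPM in starved cells, against 122.5 and 117.7 CPM in fed ones (0.67, adjusted p = 0.109 over 35 libraries and 2.01e-06 in the second set). SREBF1, the regulator of fatty acid synthesis, had 12.96 and 13.9 CPM in starved cells and 27.3 and 23.1 CPM in fed ones, and fell by 0.91 (SE 0.20, adjusted p = 0.022). The fatty acid elongase gene ELOVL6 fell by 0.60. These were the 2 of 17 fatty acid synthesis genes that were called. The list's median was -0.07, and with second-set libraries only 4 fell and 1 rose.

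**Figure D2:**
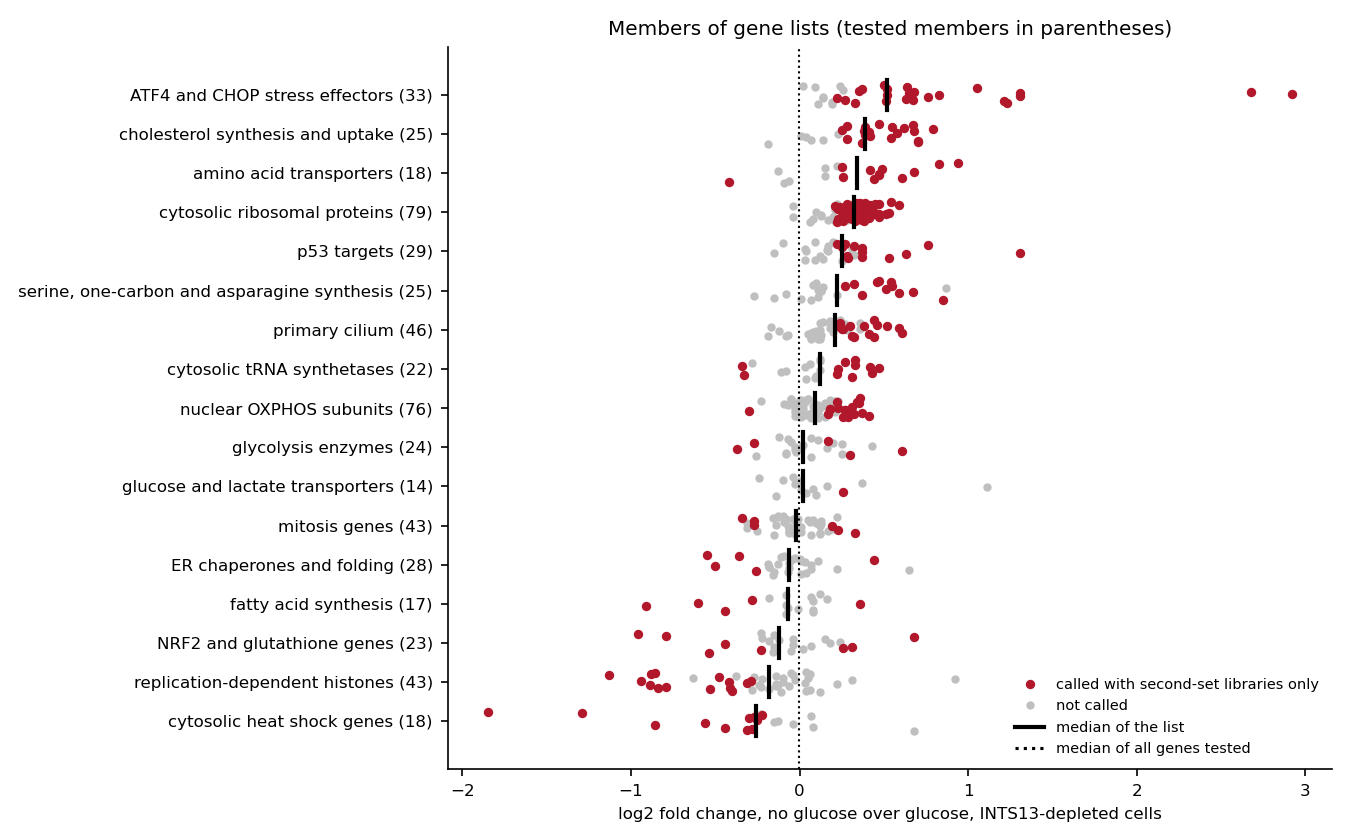
Log2 fold change without over with glucose in INTS13-depleted cells for the tested members of 17 gene lists, 1 point per gene, with the number of tested members in parentheses. Black bars mark list medians, from 0.52 for ATF4 and CHOP effectors to -0.26 for heat shock genes, the dotted line marks the median of all genes, and red points were called with second-set libraries only.

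Genes of division and histone supply were among the lower calls. CCND1, which encodes cyclin D1, had 15.2 and 16.7 CPM in starved cells, against 33.5 and 32.4 CPM in fed ones, and fell by 1.04 (SE 0.24, adjusted p = 0.0243). CCNE1, the cyclin E1 gene, had 45.9 and 46.0 CPM without glucose and 64.2 and 64.0 CPM with it (-0.48 ± 0.12, adjusted p = 0.0353). Both cyclin genes fell with no overlap between libraries. Of 43 replication-dependent histones H3C1 fell by 0.89, H1-3 by 0.86 and H3C13 by 0.84, 0 rose and 40 did not pass, with a median of -0.18. In the second-set fit 14 fell and 0 rose. H3C1 had 81.5 and 78.7 CPM in starved cells and 151.0 and 145.6 CPM in fed ones; reads of such near-identical histone genes may have been split between copies. Of 44 DNA replication genes CCNE1 was the 1 call; 29 were above 0, with a median of 0.03, and 5 rose and 1 fell in the second-set fit. Of 43 mitosis genes 0 were called by edgeR over 35 libraries, while 3 rose and 3 fell with second-set libraries only.

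DNAJB1, a co-chaperone of HSP70, had 79.2 and 89.9 CPM in starved cells and 120.9 and 127.9 CPM in fed ones, with no overlap (-0.56 ± 0.13, adjusted p = 0.027). It was the 1 call among 18 cytosolic heat shock genes, whose median was -0.26, and with second-set libraries only 11 fell and 0 rose. HSPA1B, the stress-inducible HSP70 gene, was named after its values were seen. It had 139.5 and 130.1 CPM without glucose, against 316.6 and 344.2 CPM with it (-1.29 ± 0.46, adjusted p = 0.186, and 1.24e-06 with second-set libraries only); its copy HSPA1A may share its reads. GCLM, a subunit of the enzyme that limits glutathione synthesis, had 28.7 and 27.5 CPM in starved cells and 48.6 and 48.3 CPM in fed ones, and fell by 0.79 (SE 0.15, adjusted p = 0.00896). Of 23 NRF2 and glutathione genes it was the 1 that passed, with a median of -0.12, and with second-set libraries only 5 fell and 3 rose. HMOX1, the heme oxygenase gene, was 1 of those 5 and was named after its values were seen, with 6.68 and 7.40 CPM in starved cells and 13.8 and 13.7 CPM in fed ones (-0.96). The thioredoxin-like selenoprotein gene SELENOW fell by 1.01 (25.1 and 27.1 CPM without glucose, 57.4 and 48.0 CPM with it).

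The endoplasmic reticulum chaperone BiP, encoded by HSPA5, had 223.1 and 255.8 CPM in starved cells, against 328.4 and 372.9 CPM in fed ones. The libraries did not overlap, but the change of -0.55 ± 0.17 did not pass (adjusted p = 0.124, and 0.00452 with second-set libraries only). Of 28 endoplasmic reticulum chaperones 0 were called by edgeR, with a median of -0.06, and with second-set libraries only 4 fell and 1 rose.

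Of 79 cytosolic ribosomal protein genes 77 had a positive log2 fold change, with a median of 0.32 and a range of -0.04 to 0.59. By edgeR 0 were called over 35 libraries, and with second-set libraries only 63 rose, 0 fell and 16 did not pass. These genes took 8.13% and 7.88% of the TMM-scaled counts in starved INTS13-depleted cells, against 6.39% and 6.55% in fed ones, and 7.89% to 8.42% in starved control cells, against 6.57% to 7.20% in fed control cells. The starved and fed libraries did not overlap with either siPOOL. Pseudogene copies may share reads with these genes. Of 31 ribosome biogenesis genes 0 were called over 35 libraries, with a median of -0.12, and with second-set libraries only 6 fell and 1 rose. Of 76 nuclear OXPHOS subunits 0 were called, with a median of 0.09, and 17 rose and 1 fell with second-set libraries only. All 37 mitochondrially encoded genes are listed at 0 counts and were not tested.

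Cell-death genes of the BCL2 family included 2 rises, both in BH3-only members that oppose the survival proteins. BBC3, which encodes PUMA, had 27.3 and 32.4 CPM in starved cells and 17.01 and 18.4 CPM in fed ones (0.76 ± 0.15, adjusted p = 0.0114). HRK had 28.6 and 32.7 CPM without glucose and 17.8 and 18.2 CPM with it (0.77 ± 0.13, adjusted p = 0.00369). Neither gene's groups overlapped. The other 17 tested members did not pass, the family's median was 0.04, and with second-set libraries only 5 rose and 2 fell.

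TIPARP and CYP1B1, both known targets of the aryl hydrocarbon receptor, were among the called genes with the largest rises. TIPARP, a polymerase that modifies the receptor with ADP-ribose, had 65.7 and 72.3 CPM in starved cells, against 31.5 and 34.2 CPM in fed ones, and rose by 1.07 (SE 0.10). Its adjusted p of 2.52e-06 was the lowest of the genes named here. CYP1B1, a cytochrome P450 gene, had 19.2 and 17.6 CPM without glucose and 8.52 and 7.30 CPM with it (1.21 ± 0.17, adjusted p = 0.000656). Both genes were higher in both starved libraries than in either fed one. They also rose in starved control cells, TIPARP by 0.93 (adjusted p = 5.52e-09) and CYP1B1 by 0.64 (adjusted p = 0.00034). The difference between the 2 kinds of cells did not pass for either gene in either fit (adjusted p = 0.55 and 0.0605 with second-set libraries only). AHRR, the gene of the receptor's repressor and another known target, did not pass in INTS13-depleted cells. It is given for the longer of 2 overlapping genes listed under that symbol and was named after its values were seen, with 17.8 and 16.7 CPM in starved cells and 16.5 and 14.7 CPM in fed ones (0.14, adjusted p = 0.795). In control cells it had 13.45 to 15.19 CPM without and 5.25 to 7.67 CPM with glucose, a rise of 1.14. The fed INTS13-depleted cells thus stood at 240% of the fed control mean before starvation. The difference of -1.0 did not pass over 35 libraries (adjusted p = 0.106) and passed with second-set libraries only (0.00152, kept in 12 of 12 fits without 1 library).

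The other called protein-coding genes with large changes had varied roles. Those that rose were the zinc finger gene ZC3H6 (1.11), the adaptor gene SHC2 (1.05), the matrix gene THBS3 (1.04), the neuronal genes CRMP1 (0.98) and UNC13A (0.96), the phospholipase gene PLA2G6 (0.96), the smooth muscle actin gene ACTA2 (0.94) and the collagen receptor gene DDR2 (0.94). ACTA2 overlaps the start of FAS, which is read from the other strand, so reads may be shared. Those that fell were the neuronal calcium sensor gene HPCAL4 (-0.98), the retinoic acid carrier gene CRABP2 (-0.90), the sulfate donor synthase gene PAPSS2 (-0.86) and MOB3C (-0.84). Their starved levels lay between 2.83 and 25.8 CPM. Further calls within lists were JUND (0.90), an AP-1 subunit and 1 of 31 immediate early genes; the synaptic vesicle gene SYP (0.64), 1 of 23 neuronal genes; the ciliary transition zone gene TMEM231 (0.61), 1 of 46 primary cilium genes; and the keratin gene KRT8 (-0.76), 1 of 19 epithelial genes. KRT8 overlaps KRT18. The interferon-induced genes IFIT1 (-0.66) and IFI44L (-2.31, with starved levels of 0.201 and 0.0744 CPM) fell. The immediate early list had a median of -0.15, with 9 of 31 above 0, and of the 30 tested with second-set libraries only 1 rose and 4 fell. In that fit 3 of 22 neuronal genes rose and 1 fell, and 5 of 17 epithelial genes fell and 0 rose. Of the interferon response IFIT1 and IFI44L were the 2 calls of 24 over 35 libraries, and with second-set libraries only 2 of 23 fell and 0 rose. Of 46 primary cilium genes 41 were above 0, with a median of 0.21, and 15 rose and 0 fell with second-set libraries only.

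On the list of Integrator genes NABP1, which encodes a single-stranded DNA binding protein, rose by 0.42 (48.3 and 43.0 CPM in starved cells, 34.8 and 33.6 CPM in fed ones, adjusted p = 0.0308). The other 16 tested members, INTS13 among them, did not pass over 35 libraries. The 17 members had a median of 0.08, and 4 rose and 1 fell with second-set libraries only. Those that rose there included NABP1 and INTS13, the siPOOL target itself (0.45, adjusted p = 0.000339). Of 12 tested small nuclear RNAs 0 were called by edgeR in either fit. The called genes were mostly protein coding, at 91.5% of the higher and 88.9% of the lower calls, against 71.4% of genes tested. Among noncoding calls, the abundant transcript OIP5-AS1 rose by 0.51 (165.8 and 153.2 CPM against 116.6 and 107.0 CPM in fed cells), AC015813.1 by 0.73, TMCC1-AS1 by 0.74, DICER1-AS1 by 0.80 and SNAI3-AS1 by 0.88. U91328.1 fell by 0.75 and AC091182.1 by 0.72. The strand setting of the counts is not given in the sources used here, so reads of the antisense transcripts and of their partner genes cannot be told apart.

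The design also asks whether INTS13-depleted cells answered starvation as control cells did. The starvation comparisons in the 2 kinds of cells share no library. In control cells, with 4 libraries a group, 3243 genes (16.8%) were called, 1691 (8.77%) higher and 1552 (8.05%) lower. Of the 165 genes higher in starved INTS13-depleted cells, 158 were above 0 in control cells and 135 were called higher there, which is 81.8% of the first number and 7.98% of the control calls. Of the 90 lower ones, 86 were below 0 and 69 were called lower in control cells, 76.7% and 4.45%. Of the 1691 genes called higher in control cells 92.3% were above 0 in INTS13-depleted cells, where their median log2 fold change was 0.30, against 0.51 in control cells; of the 1552 called lower, 90.4% were below 0, with medians of -0.20 and -0.37. Since these genes were chosen by their control values, the control medians are a description of that choice. Across 10207 genes whose log2 CPM averaged 3 or more, the log2 fold changes of both kinds of cells had a Pearson r of 0.695.

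TXNIP changed by -2.06 in INTS13-depleted and -1.99 in control cells, CCND1 by -1.04 and -1.23, CTH by 1.21 and 0.84, STC2 by 0.83 and 0.75, and SREBF1 by -0.91 and -0.84. The ATF4 and CHOP effectors had a median of 0.52 in INTS13-depleted and 0.53 in control cells, the cholesterol genes 0.39 in each, heat shock genes -0.26 and -0.45, histones -0.18 and -0.40, and mitosis genes -0.02 and -0.22. For none of these lists was the difference tested. On the first principal component of the 16 INTS13, control and HDGF libraries (34.7% of the variance), the starved INTS13-depleted libraries lay at 10.8 and 11.1, the fed ones at -5.84 and -6.43, the starved controls at 10.75 to 11.99 and the fed controls at -14.3 to -10.1. HDGF-depleted cells gave 683 calls (3.54%), 403 higher (2.09%) and 280 lower (1.45%). Of the 165 higher genes 161 were above 0 there and 103 were called (62.4% of them and 25.6% of the higher calls there); of the 90 lower genes 85 were below 0 and 49 were called (54.4% of them and 17.5% of the lower calls there).

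**Figure D3:**
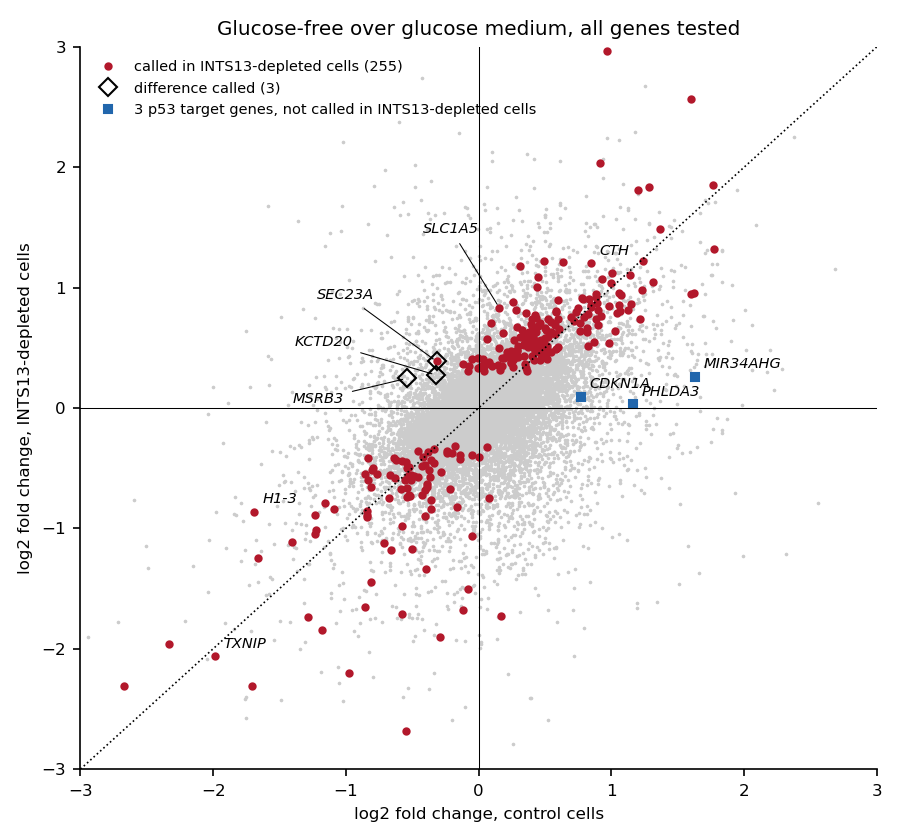
Log2 fold change without over with glucose in INTS13-depleted cells (vertical) against control cells (horizontal) for all genes tested; 20 genes lie outside the range of -3 to 3. Red points are the 255 calls in INTS13-depleted cells, and diamonds the 3 genes whose starvation effects differed. Blue squares are the p53 target genes CDKN1A, PHLDA3 and MIR34AHG, at 0.03 to 0.26 in INTS13-depleted and 0.78 to 1.63 in control cells. PHLDA3 and MIR34AHG were chosen after their values were seen, and none of these 3 differences passed over 35 libraries. The dotted line marks equal change.

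The test of the difference between the starvation effects called 3 genes (0.0156%), all higher in INTS13-depleted cells, with 1103 at an unadjusted p under 0.05. SEC23A, part of the inner layer of COPII vesicle coats, had 115.0 and 107.8 CPM in starved INTS13-depleted cells, against 84.9 and 85.4 CPM in fed ones. In control cells it had 185.9 to 202.9 CPM without glucose, against 234.2 to 255.5 CPM with it. It therefore rose in depleted cells (0.39 ± 0.08, adjusted p = 0.0128) and fell in control cells (-0.32, adjusted p = 0.000235), a difference of 0.70 ± 0.10 (adjusted p = 0.00207). In the 35-library fit it was the 1 gene called in opposite directions in the 2 kinds of cells; with second-set libraries only there were 12 higher and 4 lower in INTS13-depleted cells. The difference was lost without starved INTS13 library 3 (adjusted p = 0.0751) and kept in the other 11 fits that left out 1 library.

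KCTD20, a gene of a BTB-domain protein, had 135.7 and 138.3 CPM in starved and 114.9 and 111.6 CPM in fed INTS13-depleted cells, and 161.7 to 178.0 CPM in starved and 199.0 to 219.5 CPM in fed control cells. MSRB3, a methionine sulfoxide reductase gene, had 17.4 and 16.5 CPM in starved and 15.8 and 12.7 CPM in fed INTS13-depleted cells, and 19.6 to 20.2 CPM in starved and 26.7 to 31.2 CPM in fed control cells. In both genes the starved depleted libraries were above the fed ones and the starved control libraries below the fed ones. The change in INTS13-depleted cells did not pass for KCTD20 (0.28, adjusted p = 0.116) or MSRB3 (0.25, adjusted p = 0.312), while in control cells KCTD20 fell by 0.32 and MSRB3 by 0.54. The differences were 0.60 ± 0.11 for KCTD20 (adjusted p = 0.0372) and 0.79 ± 0.13 for MSRB3 (adjusted p = 0.0184). The KCTD20 call was lost in 9 of 12 fits without 1 library (adjusted p = 0.0717 to 0.462), namely without any of the 4 INTS13 libraries, fed control 3b or 4a, or starved control 3a, 3b or 4b. The MSRB3 call was lost in 5 (0.0537 to 0.462), without fed INTS13 library 4, starved INTS13 library 3 or 4, fed control 4a or starved control 3a. With second-set libraries only, all 3 genes kept their call in each of the 12 fits. As with INTS13 itself, all 3 were below control cells in both media and less so without glucose: SEC23A stood at 56.9% of the control mean without and 34.9% with glucose, KCTD20 at 81.5% and 53.9%, and MSRB3 at 84.9% and 49.0%. INTS13 had a difference of 0.42 ± 0.16 (adjusted p = 0.711), and 0.43 with second-set libraries only (adjusted p = 0.0146), a call lost there without fed INTS13 library 3 or 4 or starved INTS13 library 3 (adjusted p up to 0.141).

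**Figure D4:**
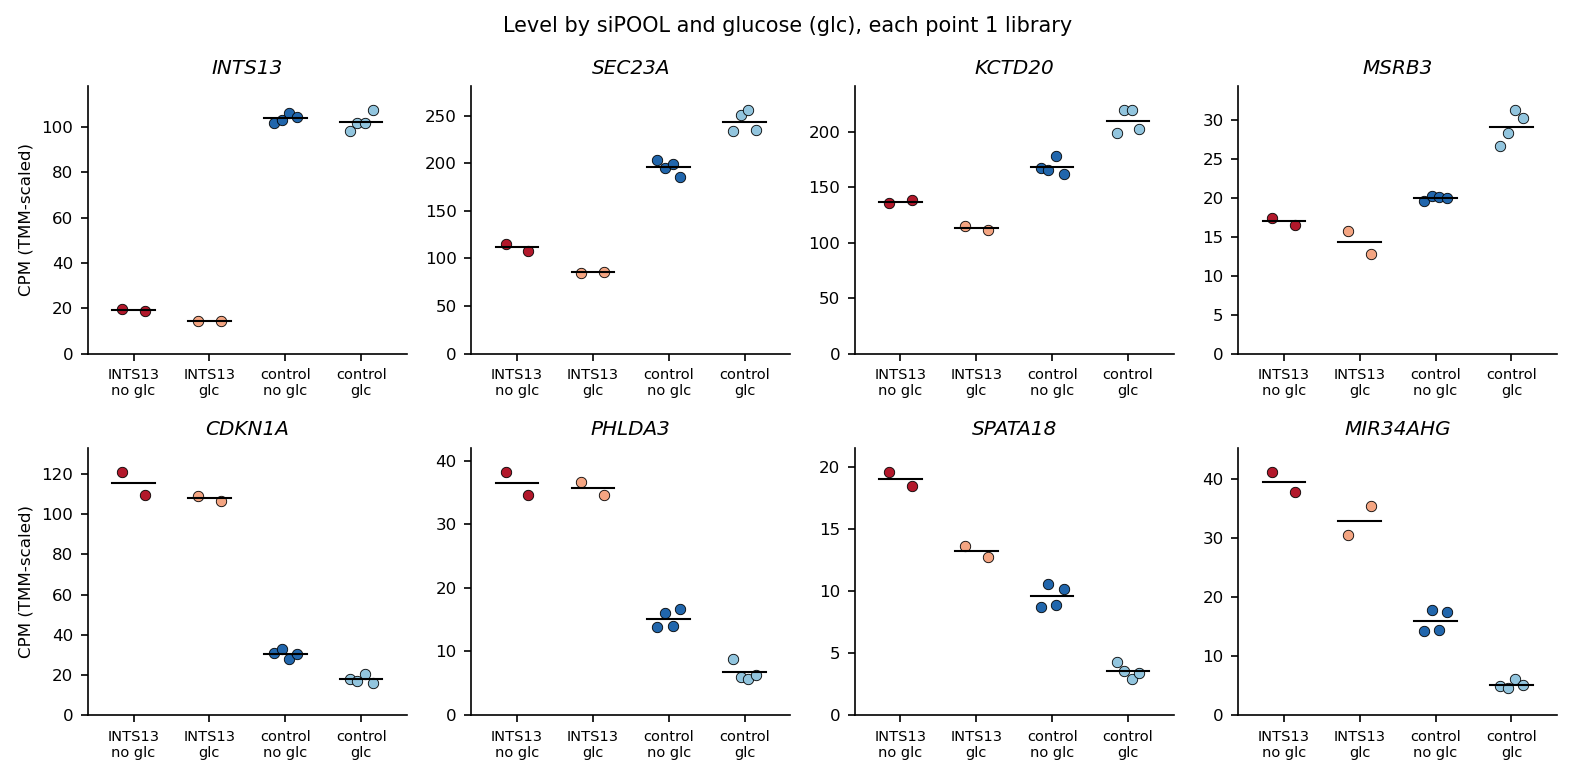
CPM from 0 on each vertical axis for INTS13, 3 genes whose starvation effect differed and 4 p53 target genes, in INTS13-depleted cells without and with glucose and in control cells without and with glucose (left to right). Points are libraries and lines are group means. In the lower row both groups of INTS13-depleted cells, such as CDKN1A at 106.8 to 121.1 CPM, lie above both groups of control cells at 15.9 to 32.9 CPM. PHLDA3, SPATA18 and MIR34AHG were chosen after their values were seen.

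With second-set libraries only the difference was called in 307 genes (1.64% of 18665), 208 (1.11%) higher and 99 (0.53%) lower, the 3 above among them. Of the 208, 151 were called in starved control cells in that fit, where 34.7% of all genes were, and 147 of these were lower. In INTS13-depleted cells 73 of the 208 were called higher and 14 lower, with medians of 0.13 and -0.28 in the depleted and control cells. Of the 99, 85 were called in control cells, 84 of them higher, and 15 were called higher and 19 lower in INTS13-depleted cells, with medians of -0.03 and 0.52. Of the 307 genes 23 kept their call with each of 12 libraries left out in turn. SLC1A5 was one of these, with a difference of 0.67 ± 0.16 (adjusted p = 0.229, and 0.000905 with second-set libraries only): in control cells it had 437.8 to 446.5 CPM without and 374.8 to 406.1 CPM with glucose. So was the linker histone gene H1-3, which fell by 0.86 in INTS13-depleted and by 1.69 in control cells (difference 0.83, adjusted p = 0.247 and 0.000905).

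The p53 targets held 5 of the 99 lower differences. Over all 29 tested p53 targets the difference had a median of -0.04 in the 35-library fit, and 13 were above 0. The list as a set was therefore not shifted. Other genes with a lower difference in the second-set fit included KCNC1 (-1.18), SRGAP3 (-0.88) and COL5A1 (-0.85), named after their values were seen. They kept it in 10, 3 and 1 of 12 fits without 1 library. CDKN1A, the gene of the cyclin-dependent kinase inhibitor p21, had 121.1 and 109.5 CPM in starved and 109.1 and 106.8 CPM in fed INTS13-depleted cells. In control cells it had 27.9 to 32.9 CPM without and 15.9 to 20.6 CPM with glucose. The starvation effect was 0.09 (adjusted p = 0.875) in INTS13-depleted and 0.78 (adjusted p = 4.56e-05) in control cells, and the difference of -0.68 ± 0.20 did not pass over 35 libraries (adjusted p = 0.44) but did with second-set libraries only (0.014).

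PHLDA3, an inhibitor of AKT named after its values were seen, had 38.3 and 34.7 CPM in starved and 36.7 and 34.6 CPM in fed INTS13-depleted cells, against 13.9 to 16.7 and 5.69 to 8.79 CPM in starved and fed control cells (difference -1.13 ± 0.26, adjusted p = 0.226, and 0.0019 with second-set libraries only). The mitophagy gene SPATA18 (-0.90) and the receptor genes EDA2R (-1.28) and TNFRSF10B (-0.41), likewise named after their values were seen, also passed with second-set libraries only. MIR34AHG, the host transcript of the p53-induced miR-34a, was named after its values were seen and differed by -1.37 ± 0.28 (adjusted p = 0.106 and 4.34e-05). With 1 library left out of the second-set fit, PHLDA3 and MIR34AHG kept the difference in 12 of 12 fits, SPATA18 in 11, CDKN1A and TNFRSF10B in 9 and EDA2R in 8, each loss being without an INTS13 library (adjusted p up to 0.136). In fed cells these 6 transcripts stood at 256% to 639% of the control mean. Of the 29 p53 targets tested, 27 were above 0 in starved INTS13-depleted cells, with a median of 0.25, against 0.31 in control cells. BBC3 was the 1 that rose over 35 libraries, and 13 rose and 0 fell with second-set libraries only. BBC3 is also a member of the ATF4 and CHOP list and of the BCL2 family list, and is counted in each.

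Against HDGF-depleted cells 0 genes (0.0%) differed in their starvation effect by edgeR over 35 libraries, with 546 at an unadjusted p under 0.05 and 0 by the DESeq2 Wald test. With second-set libraries only 3 were called (0.0161%): SLC1A5 higher, and the presynaptic scaffold gene PCLO and MIR34AHG lower, all named after their values were seen. The starvation effect of SLC1A5 was 0.83 in INTS13-depleted and 0.14 in HDGF-depleted cells, that of PCLO 0.06 and 0.79, and that of MIR34AHG 0.26 and 1.38. Over the 10207 genes above, the log2 fold changes of INTS13- and HDGF-depleted cells had a Pearson r of 0.765.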

How the data were processed

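RNA of HEK293T cells was depleted of ribosomal RNA and sequenced single-end on an Illumina instrument after stranded total RNA preparation, per the labels' protocols. The authors deposited 1 table of whole-number read counts per gene, made before removal of duplicate reads. FastQC, cutadapt, STAR and hg38 are named, with no version, per the submitters' processing notes. The counting tool, its strand setting and the annotation release are not given in the sources used here. Gene types were taken from GENCODE 29, which held 18976 of the 19275 tested identifiers. For the remaining identifiers the type was taken from RefSeq by gene symbol, where the symbol was found.

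Groups come from the labels. Counts of all 35 libraries, 16.8 to 50.8 in units of 1e6, were scaled by TMM and fitted with 1 mean for each of 15 groups by the quasi-likelihood method of edgeR 4.0.16 (R 4.3.3) after its filter on low counts. CPM values were computed from the deposited counts. Tests were two-sided with Benjamini-Hochberg adjustment over all genes tested, and every adjusted p in the text comes from edgeR unless DESeq2 1.42.0 is named. Standard errors are of the log2 fold change. The fit has 20 residual degrees of freedom. It was also run on counts simulated from its own means and spread, which cannot show how well that spread suits these libraries.

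Second-set libraries are the 18 numbered 3 and 4 of the INTS13, HDGF, ZNF655 and control groups, and they hold every INTS13 library. The libraries of ZMYND8 depletion and of its own controls are also numbered 3 and 4 and were left out of this set. Same-numbered libraries deviated together (r over 0.1) in 6 of 21 pairs of groups, so no block entered. Alternatives were other scaling, filters, fits and libraries left out. Named were the INTS13 gene and the 12 protein-coding and 4 other calls with the largest change in each direction. These calls had a mean log2 CPM of 2 or more. The rule also required starved and fed libraries that did not overlap, which held for all 255 calls. Also named were up to 6 differences in each direction, up to 4 called members of each list and a few markers. Genes described as named after their values were seen fall outside this rule. Members, lists and tests were chosen with earlier results of these data known.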

Additional observations from a re-analysis of the deposited data

Results flagged for a closer look

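SEC23A, KCTD20 and MSRB3 were picked out because the test of the difference between the starvation effects of INTS13-depleted and control cells passed. The differences were 0.70, 0.60 and 0.79 on the log2 scale, higher in INTS13-depleted cells. Their dependence on single libraries is given with their values above, and the cause of the differences was not tested.

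SLC1A5 was picked out because control library 4b with glucose, at 375 CPM, lay far from the other 3 fed control libraries, which had 401.3 to 406.1 CPM. In starved control cells the gene had 437.8 to 446.5 CPM. Chance picks out about 1 in 20 groups by this rule, and 24 groups of 4 control libraries were examined.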

How the results depend on the processing

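The count of calls for starvation of INTS13-depleted cells, 255 with all libraries, was 2371 with second-set libraries only, 2933 with only the 4 INTS13 libraries, 2198 with only the 12 INTS13 and control libraries, 538 by the DESeq2 Wald test and 1 by a test against a 1.5-fold change. Leaving out 1 library gave 8 to 36 calls, and 987 to 1217 with second-set libraries only. DESeq2 size factors gave 233, and both other filters 292 and 294. For control cells the counts were 6479 with second-set libraries only, 6338 with 12 libraries and 100 against a 1.5-fold change, and for HDGF-depleted cells 3170, 4 against a 1.5-fold change and 109 to 208 with 1 library left out. The difference from control cells was called in 307 genes with second-set libraries only, 184 with 12 libraries, 46 by the Wald test, 0 against a 1.5-fold change, 0 to 7 with 1 library left out and 30 to 760 with second-set libraries and 1 left out. The difference from HDGF-depleted cells was called in 3 genes with second-set libraries only. The cause of these shifts was not tested.

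With the replicate number as a replicate block, the second-set counts were 2267 for INTS13-depleted, 6400 for control and 3069 for HDGF-depleted cells, and 235 and 3 for the differences from control and HDGF-depleted cells. The labels do not say whether the numbers pair the libraries. Across 21 pairs of groups r ran from -0.498 to 0.353 and was over 0.1 in 6, and this check cannot exclude a weak pairing. For starved and fed INTS13 libraries it was -0.125, and a crossed replicate block gave 2272, 256 and 3 calls. The 12-library, crossed and second-set left-out fits were chosen after seeing the data.

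Of 108 named genes (102 under the CPM filter and 105 by the Wald test) no direction turned under the settings that kept every INTS13 library. With 1 left out, 4 genes that had not passed changed sign, over both fits, with PHLDA3 at -0.05 to 0.11, SEMA3C at -0.14 to 0.12, SLC2A1 at -0.11 to 0.03 and HK2 at -0.01 to 0.16. The share of control calls that were higher was 52.1% with TMM and 48.1% with DESeq2 size factors.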
